A study of Drosophila melanogaster with 2 samples.

Results

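The binding of Sox102F around 10 transcription factor genes of the ecdysone response was examined in Drosophila melanogaster embryos. The genes were given by symbol: EcR, usp, Eip74EF, Eip75B, Eip78C, br, Hr3, Hr4, Hr39 and ftz-f1. All 10 were found among the 13968 protein-coding genes on the 7 chromosome arms of the annotation. The rule that lists them uses no peak value, but earlier results of these data were known when they were chosen. Chromatin immunoprecipitation and sequencing (ChIP-seq) had been done on whole embryos at 12 to 14 h of age. The embryos came from a stable transgenic line, Sox102F-GFP, in which green fluorescent protein (GFP) was fused to the C-terminal end of the SoxD-family protein Sox102F, and the fusion was recovered through its GFP. The only group held 2 biological replicates, numbered 2 and 3 by the submitters, so no treatment, stage or genotype was compared and no test between groups was possible. Sequencing depth was unknown, as the peak lists held no read counts. Every sample carried the transgene. The labels do not give the promoter that drives it, and an embryo without the tag was not analysed here. Whole embryos mix all tissues, so a peak gives no information on which cells it came from.

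The steroid 20-hydroxyecdysone acts through a heterodimer of nuclear receptors, the ecdysone receptor EcR and its partner ultraspiracle (usp), the fly relative of the vertebrate RXR. The hormone-bound receptor switches on early genes that encode transcription factors, among them br (a family of zinc finger proteins), Eip74EF (an ETS-domain protein) and Eip75B (a nuclear receptor that binds heme). Early-late genes such as Hr3, Hr4, Hr39 and Eip78C encode further nuclear receptors. Hr3 is an activator of ftz-f1, and the Eip75B protein can block Hr3. The ftz-f1 gene encodes a nuclear receptor that makes later tissues competent for the next pulse, and its maternal form is a partner of the segmentation protein Ftz. Hr39 is its closest relative. Ecdysteroids also peak in the middle of embryogenesis, before the larval cuticle is made. Sox proteins bind DNA through an HMG box with a preference for the core ACAAT.

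The DNA under the peaks is shown first for 7 intronic summits, the 3 highest of Hr4 and the highest of Eip74EF, br, ftz-f1 and Eip78C, so that the sites described later can be read directly. The last line is the window in ftz-f1 that held the extended Sox core AACAAT. Each window covers the summit and 50 bp on either side, on the plus strand of dm6, and was read from the RefSeq sequence. Capitals mark any of 6 words on either strand. These were the Sox core, its extended form, the word TAACA as the same bases as the short core in reversed order, the nuclear receptor half-site AGGTCA, the homeodomain core TAATTA and the GATA-factor word AGATAA. A capitalised run that overlaps more than one word holds them all.
Hr4, chrX:1947699-1947799: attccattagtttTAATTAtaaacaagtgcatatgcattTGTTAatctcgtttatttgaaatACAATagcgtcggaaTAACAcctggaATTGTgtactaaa
Hr4, chrX:1963885-1963985: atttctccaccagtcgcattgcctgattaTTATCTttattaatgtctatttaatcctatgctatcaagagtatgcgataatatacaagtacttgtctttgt
Hr4, chrX:1951860-1951960: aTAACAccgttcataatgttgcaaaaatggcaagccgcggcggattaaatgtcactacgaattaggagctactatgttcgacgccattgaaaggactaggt
Eip74EF, chr3L:17567004-17567104: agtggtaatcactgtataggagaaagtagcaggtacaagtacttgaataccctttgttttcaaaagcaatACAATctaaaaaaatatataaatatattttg
br, chrX:1618808-1618908: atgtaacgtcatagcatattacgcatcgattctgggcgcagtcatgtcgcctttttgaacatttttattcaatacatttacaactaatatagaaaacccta
ftz-f1, chr3L:18756644-18756744: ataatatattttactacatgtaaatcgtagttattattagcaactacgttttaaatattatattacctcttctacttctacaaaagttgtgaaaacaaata
Eip78C, chr3L:21253843-21253943: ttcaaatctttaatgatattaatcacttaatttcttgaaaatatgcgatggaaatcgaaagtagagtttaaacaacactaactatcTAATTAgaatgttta
ftz-f1, chr3L:18791609-18791709: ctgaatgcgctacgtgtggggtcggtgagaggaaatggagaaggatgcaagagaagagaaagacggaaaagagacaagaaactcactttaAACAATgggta
The first Hr4 window held ACAAT in both orientations, TAACA in both orientations and TAATTA. The second held only AGATAA, and the third only TAACA. The Eip74EF window held ACAAT and the Eip78C window TAATTA, while the br window and the highest ftz-f1 window held none of the 6 words.

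Sox102F-GFP peaks were abundant along most of these genes, mainly inside introns and far from promoters. Of the 10 genes, 9 held at least 1 optimal summit in the gene body, taken from 1 kb upstream to the gene end. The optimal list, which the authors made from the lists of the replicates and of both pooled, held 7488 peaks. Together the 10 bodies, 571 kb long, held 69 optimal summits, or 1.21 per 10 kb, against 0.546 per 10 kb over the 7 arms and 0.644 per 10 kb over all protein-coding gene bodies. The member without a summit was Hr39. Among all protein-coding genes 25.3% had a summit in the body, but that share differed with length. It was 15.4% for bodies under 5 kb, the class of usp, and 70.6% for bodies of 20 to 50 kb, that of Eip78C, Hr3 and Hr39. It was 77.1% for bodies of 50 to 100 kb, that of EcR, Eip74EF, br, Hr4 and ftz-f1, and 73.9% for bodies over 100 kb, that of Eip75B. For genes of these lengths, holding a summit at all is common, and the number of summits per length says more.

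**Figure D1:**
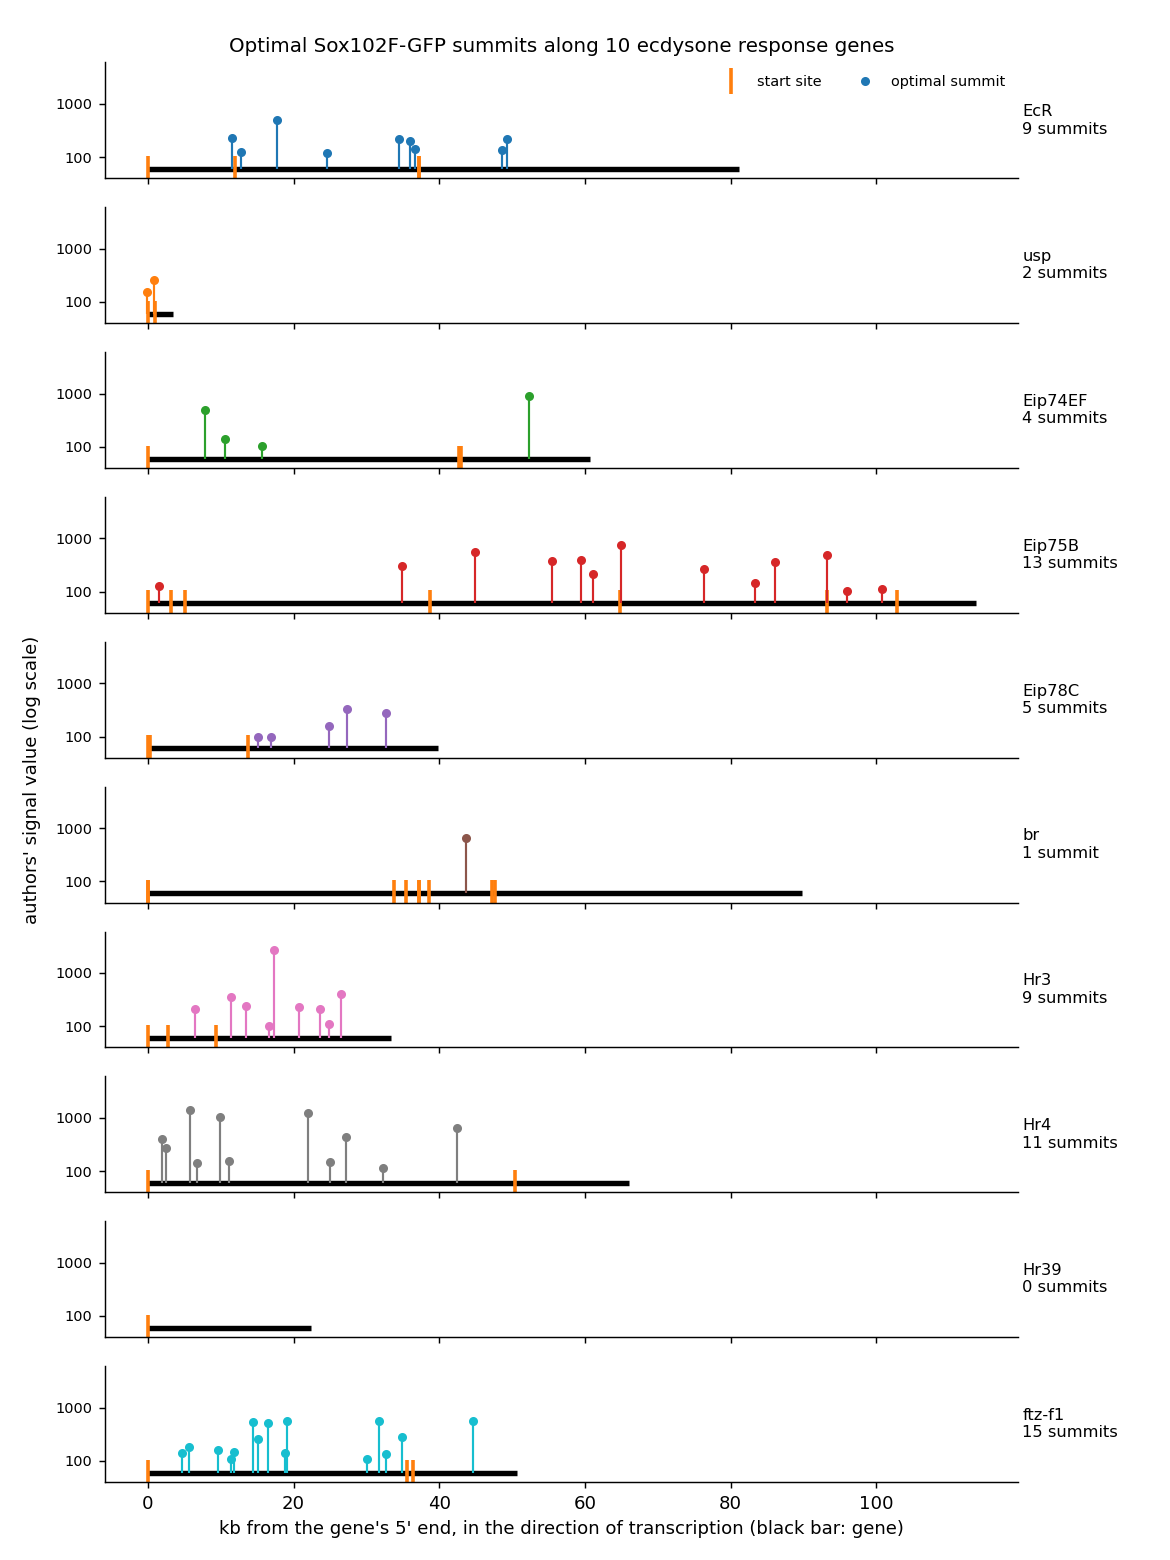
Position of each optimal summit along the 10 genes in kb from the gene's 5′ end, in the direction of transcription, with the authors' signal value on a log axis; orange ticks are start sites and the black bar is the gene. The highest summit, of signal value 2669, lies inside Hr3, and Hr39 has none.

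By density the 10 genes fell far apart. In ftz-f1, 15 summits over the body gave 2.90 per 10 kb, the second highest density among 240 genes of 50 to 100 kb, whose median was 0.46. Hr3 held 9 summits, or 2.62 per 10 kb, 31st of 756 genes of 20 to 50 kb, whose median was 0.49. Hr4 held 11, or 1.64 per 10 kb, 24th of the 240. Eip75B held 13, or 1.13 per 10 kb, and ranked 8th of 88 genes over 100 kb, whose median was 0.26. EcR with 9 summits (1.09 per 10 kb, 52nd of 240), Eip78C with 5 (1.22 per 10 kb, 188th of 756) and Eip74EF with 4 (0.65 per 10 kb, 88th of 240) were also above the medians of their classes. With all summits of a class divided by all its length, the density was 0.75 per 10 kb for 20 to 50 kb. It was 0.63 for 50 to 100 kb and 0.32 over 100 kb, so Eip74EF stood close to its class by that measure. The short gene usp held 2 summits in a body of 4.51 kb, or 4.43 per 10 kb, which put it 485th of 9756 genes under 5 kb, whose median was 0.00. Below the median stood br, with 1 summit in a gene of 89.7 kb (0.11 per 10 kb, 182nd of 240), and Hr39, with 0 in 22.4 kb.

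**Figure D2:**
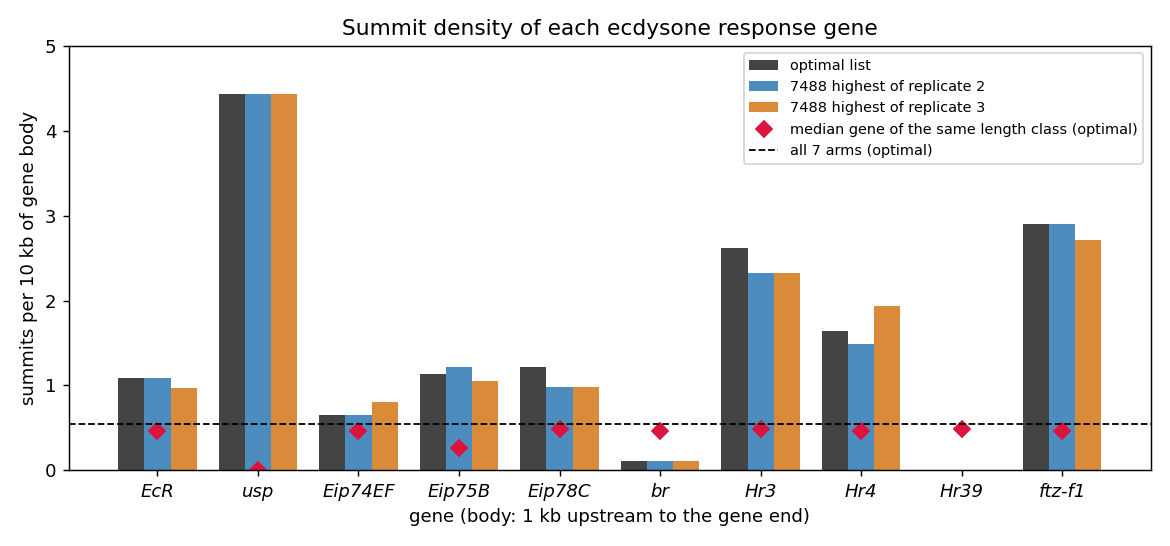
Optimal summits per 10 kb of gene body, in black, beside the same count from the 7488 highest peaks of replicate 2 (blue) and of replicate 3 (orange); diamonds give the median gene of the same length class and the dashed line the density over the 7 arms, 0.546. The bars of the 3 lists stand close together for every gene, with usp, ftz-f1 and Hr3 highest and br and Hr39 lowest.

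The replicates gave like counts. Among as many of the highest peaks of each replicate alone as the optimal list holds, the 10 bodies held 67 summits in replicate 2 and 67 in replicate 3, or 1.17 per 10 kb in each. In ftz-f1 these lists held 15 summits in replicate 2 and 14 in replicate 3, and in Hr3 8 in each. In Hr4 they held 10 in replicate 2 and 13 in replicate 3, in Eip75B 14 in replicate 2 and 12 in replicate 3, and in EcR 9 in replicate 2 and 8 in replicate 3. The single summit of br and the absence of any in Hr39 were the same in both. In the full lists of 30000 peaks each, which reach much weaker peaks, the 10 bodies held 230 summits in replicate 2 and 254 in replicate 3, with 235 in the pooled list. That is 4.11 per 10 kb in the pooled list, against 2.19 per 10 kb over the arms. There br held 10 pooled summits and Hr39 still held 0, although Hr39 had 3 in replicate 2 and 2 in replicate 3. A pooled summit in the body was found in 9 of the 10 genes, beside 38.9% of all protein-coding genes. That share was not split by gene length.

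The 2 receptor genes were both bound at a promoter, defined as a summit within 500 bp of a transcription start site. EcR lies on 2R from 6087873 to 6169087, on the minus strand, and has 4 start sites. Its summit at 6157480, 351 bp upstream of the start of EcR-RD and EcR-RE, had a signal value of 232, with 81.7 in replicate 2 and 145 in replicate 3. Signal values are the authors' peak scores with no depth scaling stated. They are compared here within a list, except where the 2 replicates are correlated or set side by side. A further summit at 6132450 lay 528 bp upstream of the start shared by EcR-RB and EcR-RC, just outside the window, with a signal value of 139, and the optimal summit nearest to the start of EcR-RA was 11607 bp away. The highest peak of the gene, at 6151347 in an intron, reached 492. Its summit lay in no peak of replicate 2, where the nearest summit was 54 bp away with a signal value of 145, while replicate 3 gave 368. The 9 summits ran from 11.61 to 49.35 kb downstream of the 5′ end, so the first and the last parts of the gene had none.

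The gene usp, on X from 2038798 to 2042311 on the minus strand, was the only one with every start site bound in the optimal list. The summit at 2041467 lay 155 bp upstream of the start of usp-RA and had a signal value of 263, with 116 in replicate 2 and 158 in replicate 3. The summit at 2042461 lay 150 bp upstream of the start of usp-RB and had 157, with 61.1 in replicate 2 and 104 in replicate 3. These positions are shared with other genes. The 2042461 summit is as near to a start of Actn, the alpha-actinin gene, which begins at the same base as usp, and the 2041467 summit lies within 500 bp of a start of CG4313. Neither summit can be assigned to usp alone.

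Among the early genes, Eip75B was bound at promoters in the optimal list and the other 2 were not. Eip75B lies on 3L from 17950953 to 18064696, on the minus strand, and 2 of its 7 start sites were bound. The summit at 17999778 lay 43 bp downstream of the start of Eip75B-RC and was the highest of the gene, with a signal value of 755 (rank 597), 284 in replicate 2 and 479 in replicate 3. The summit at 17971474 lay 35 bp upstream of the start of Eip75B-RA and had 478 (rank 1296), with 253 in replicate 2 and 235 in replicate 3. The remaining 11 summits of Eip75B were in introns, with the highest at 18019825 (548, with 164 in replicate 2 and 382 in replicate 3). One of them, at 17981325, also lay in the gene of a long non-coding RNA, lncRNA:CR45921.

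Eip74EF, on 3L from 17558672 to 17619325 on the minus strand, had all 4 summits in introns. The highest, at 17567054, reached 881 (rank 441) and stood 9.27 kb downstream of the start of Eip74EF-RD, with 339 in replicate 2 (rank 444) and 543 in replicate 3 (rank 453). The second, at 17611456, had 489. The stretch of 36653 bp between the summits at 17567054 and 17603707 was the longest between neighbouring optimal summits in any of the 10 genes. It holds 2 of the 3 start sites. In the pooled list and both full replicate lists, all 3 start sites of Eip74EF had a weaker summit within 500 bp. The gene br, on X from 1575132 to 1664869 on the plus strand, had 9 start sites and a single optimal summit, at 1618858 and 3.45 kb upstream of the start of br-RS. That peak was high, with a signal value of 648 (rank 794), 246 in replicate 2 (rank 795) and 397 in replicate 3 (rank 814). It lies in the overlap of br with Mur2B, a gene on the opposite strand that spans all of br.

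Of the early-late receptor genes, Hr3 and Hr4 held the 4 highest peaks of all 10 genes, and none had a bound promoter in the optimal list. In Hr3, on 2R from 10203995 to 10237348 on the minus strand, the intronic peak from 10219849 to 10220319 had a signal value of 2669 and was the 25th highest of the 7488. It had 962 in replicate 2 (rank 30) and 1723 in replicate 3 (rank 22), and its summit lay 7.88 kb downstream of the start of Hr3-RA, Hr3-RF and Hr3-RH. The other 8 summits of Hr3 had signal values of up to 405. All 9 also lie in CG12912 and 8 of them in CG46321, annotated genes on the same strand that share start sites with Hr3 transcripts.

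Hr4, on X from 1941940 to 2007956 on the plus strand, had 4 of its 11 summits among the 1000 highest peaks. They were at 1947749 with 1419 (rank 156), at 1963935 with 1217 (rank 233), at 1951910 with 1050 (rank 307) and at 1984340 with 653 (rank 783). In replicate 2 these had signal values of 565, 436, 393 and 241, and in replicate 3 851, 774, 651 and 428. The order of the 4 was the same in both replicates. All lay in introns between 5.81 and 42.4 kb from the 5′ end, and the nearest optimal summit was 1767 bp from the common start and 7960 bp from the internal start of Hr4-RE and Hr4-RF.

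Eip78C, on 3L from 21226609 to 21266503 on the plus strand, had 5 summits, all of them downstream of its internal start site and in introns. The highest was at 21253893 with 324 (132 in replicate 2 and 195 in replicate 3), and the 2 lowest, with 98.6 and 98, stood close to the end of the list at ranks 7400 and 7441. Hr39, on 2L from 21237250 to 21259675 on the plus strand, had no optimal or pooled summit in its body, and the nearest optimal summit outside lay 4341 bp away. A weak peak of signal value 43.4 in replicate 3 (rank 10673) lay 64 bp downstream of its start, with no counterpart within 500 bp in replicate 2.

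In ftz-f1, the competence factor gene on 3L from 18750607 to 18801309 on the minus strand, 15 intronic summits ran from 4.74 to 44.62 kb downstream of the 5′ end at a median spacing of 1729 bp. The 3 highest were at 18756694 with 566 (219 in replicate 2 and 348 in replicate 3), at 18782269 with 562 (223 in replicate 2 and 343 in replicate 3) and at 18769520 with 555 (231 in replicate 2 and 334 in replicate 3). Its 5 highest summits, all above 500, differed little in signal value, unlike Hr3, where 1 peak stood far above the rest. None was within 500 bp of its 3 start sites, and the nearest was 652 bp upstream of the start of ftz-f1-RC and ftz-f1-RD. Of the 15, 10 also lie in lncRNA:CR45939, a long non-coding RNA gene that overlaps ftz-f1 on the same strand. The peaks with summits at 18782269 and 18782477 share 1 start and overlap, and were counted as 2 summits.

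The 10 kb on each side of the bodies held from 0 to 4 optimal summits, beside 0.546 per 10 kb over the arms. Hr3 had 4 downstream and 0 upstream, and Hr4 had 2 downstream and 1 upstream, the nearest 767 bp from its body. The genes usp and Eip78C each had 1 on either side, Eip74EF had 1 upstream and 0 downstream, and Eip75B, br and Hr39 each had 1 downstream and 0 upstream. EcR and ftz-f1 had 0 on both sides, with the nearest 11191 bp from the body of EcR and 11993 bp from that of ftz-f1.

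In all, 3 of the 10 genes and 5 of their 37 start sites had an optimal summit within 500 bp. Among all protein-coding genes the share was 16.9%, among those with 2 or more start sites, as 9 of the 10 have, it was 30.1%, and among all start sites 15.5%. The counts of these genes were thus close to the background. In the pooled list no share was computed for genes with 2 or more start sites. There 6 of the 10 genes and 12 of the 37 start sites had a summit in the window, beside 29.5% of all genes and 29.4% of all start sites. The members added there were Eip74EF (highest signal value 80.1, rank 8855), Hr4 (36.9 and 36.1 at its 2 start sites) and ftz-f1 (41.9), all below the lowest signal value of the optimal list, 97.2, as that list is the top of the pooled one.

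The 69 summits lay farther from start sites than genic summits in general. Introns held 62 of them (89.9%, 95% Wilson interval 80.5 to 95%). The same class took 63.5% of the 5936 optimal summits in any protein-coding gene body. Promoter windows held 5 (7.25%, interval 3.13 to 15.9%), against 34.6%. The other 2 were in 5′ UTRs, at 6156297 in EcR and at 10223838 in Hr3 (2.9%, interval 0.799 to 9.97%), against 0.657%. No summit was in coding sequence, against 0.253%, or in a 3′ UTR, against 0.994%. With a limit of 3 counts, 0 of 69 allows a share of up to 4.35%, above both of these. The intron class took every summit outside promoter windows, UTRs and coding sequence. Bodies include the stretch upstream of the gene, so the 63.5% can hold summits upstream of a gene. It is thus an upper limit for introns outside promoter windows. All 62 summits of the class in the ecdysone response genes lay inside the gene. More than 5 kb from any protein-coding start site lay 41 summits (59.4%, interval 47.6 to 70.2%), against 25.2%, and more than 10 kb away 21 (30.4%, interval 20.8 to 42.1%), against 12.6%. Intervals cover the counting error of summits only. Of these genes 9 have bodies over 20 kb, and the part of gene and intron length in these shares was not tested. Their start sites were nearer to a summit, with a median distance of 3450 bp over 37 start sites, against 6253 bp over 19607.

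**Figure D3:**
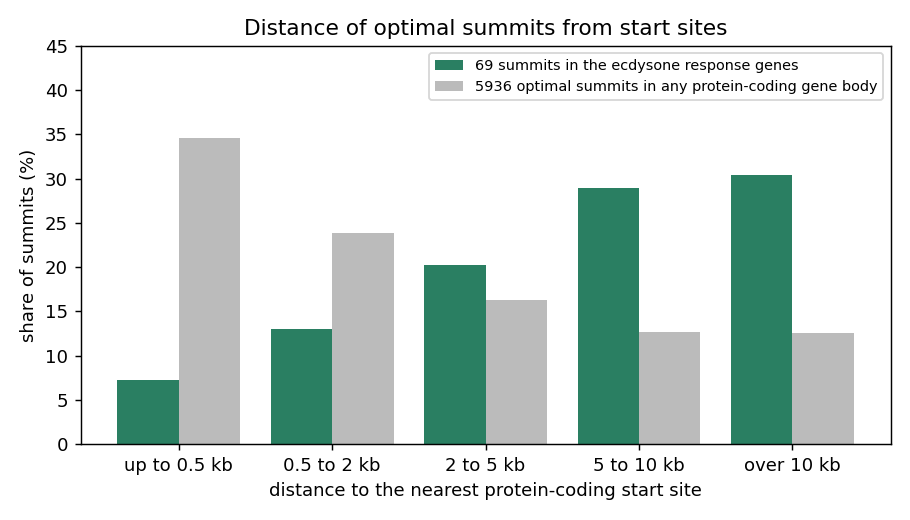
Share of optimal summits in 5 classes of distance to the nearest protein-coding start site, for the 69 summits in the ecdysone response genes (green) and all 5936 summits in protein-coding gene bodies (grey). The green bars reach 30.4% beyond 10 kb and 7.25% within 0.5 kb, where the grey bars stand at 12.6% and 34.6%.

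The signal values of the 69 summits spread over the whole list. Their median was 230, with a range of 98 to 2669, against a median of 204 over all optimal peaks. Among the 1000 highest peaks were 10 of the 69 (14.5%), against 13.4% of all. These were 4 of Hr4, 2 of ftz-f1 and 1 each of Eip74EF, Eip75B, br and Hr3. By gene the median signal value was 648 in br, 407 in Hr4, 313 in Eip74EF, 298 in Eip75B, 230 in Hr3, 210 in usp, 198 in EcR, 185 in ftz-f1 and 158 in Eip78C. The order by median signal value thus differed from the order by number, with ftz-f1 first in number and near the end by median. Its highest summit, at 566, was above those of EcR (492), Eip78C (324) and usp (263). It was below those of Eip74EF, Eip75B, br, Hr3 and Hr4. The median of br rests on 1 summit and that of usp on 2. A gene with few summits could hold a high one. The only summit of br had a signal value of 648, while of the 9 in EcR only the one of 492 was over 300.

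Both replicates listed nearly all of these peaks. A peak of each replicate covered 65 of the 69 summits (94.2%, interval 86 to 97.7%), against 94.4% of all optimal summits, and 53 (76.8%) lay in the highest peaks of both, against 77.4%. All 4 exceptions lacked a peak of replicate 2 over the summit. They were the EcR summit at 6151347, the Hr4 summit at 1943819 (407) and the ftz-f1 summits at 18782477 (140) and 18789429 (146). In the first 3 the interval still overlapped a peak of replicate 2, with its summit 54, 42 and 197 bp away, and only the last overlapped none. As a description, the log2 signal values in replicate 3 and replicate 2 were correlated over the 65 summits, with r = 0.914 by Pearson and rho = 0.902 by Spearman. The points share 1 control file and a list made from both replicates. The least alike was the Hr4 summit at 1953136, with 17.8 in replicate 2 (rank 18208) and 142 in replicate 3 (rank 3457).

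**Figure D4:**
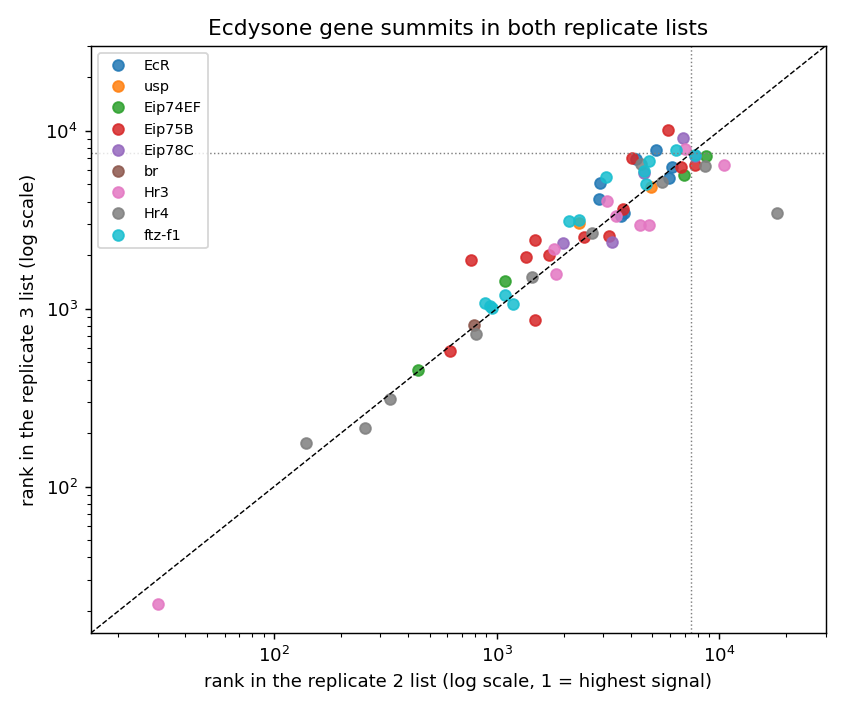
Rank of each of the 65 summits in the list of replicate 3 against its rank in the list of replicate 2, on log axes with 1 the highest signal value, coloured by gene; the dashed line marks equal ranks and the dotted lines rank 7488. Most points lie near the line, with the Hr3 peak lowest on both axes at 30 and 22 and 1 Hr4 summit far to the right at 18208.

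The sequence at these summits was rich in A and T, as at other optimal summits. The median GC content of the windows within 50 bp of the summit was 30.7%, with a range of 16.8 to 64.4%, against 29.7% over all optimal summits and 42.1% over the arms. In windows centred 300 bp to either side the median was 45.5% beside the members' summits and 44.6% beside all. In the 25 bp profile the members' mean was 39% at -100 bp and 39.8% at 100 bp, against 38.8% and 39.2% over all. At -200 bp and 200 bp it was 43.8% and 41%, against 43.4% and 43.7% over all. The dip thus lay mostly within about 200 bp of the summit.

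**Figure D5:**
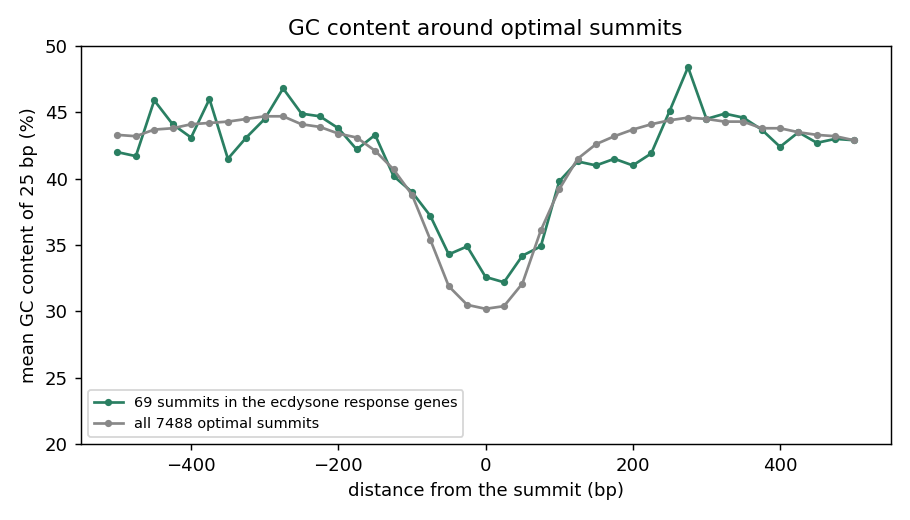
Mean GC content of 25 bp stretches, in percent, by distance from the summit in bp, for the 69 summits in the ecdysone response genes (green) and all 7488 optimal summits (grey). Both lines fall at the summit, to 32.6% in green and 30.2% in grey, and stand at 44.5% and 44.7% at -300 bp on the axis.

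Words of the Sox core were no more frequent at these summits than over the whole list. Near 20 of the 69 summits, within 50 bp, stood the Sox core ACAAT (29%, interval 19.6 to 40.6%), against 33.9% of all optimal summits. In the flanking windows it was in 21.7% beside the members' summits and 23.6% beside all. Within 100 bp of the summit in place of 50 bp, the share was 47.8%, against 53.1% of all. The extended core AACAAT was in 4 windows (5.8%, interval 2.28 to 14%), 1 each in EcR, Eip75B, Hr3 and ftz-f1, against 15.4% of all, and in 12.3% of the members' flanks, against 10.1% of all flanks. The reversed-order word TAACA was in 17 windows (24.6%), against 29.9%, and either short word in 31 (44.9%), against 51.6%. By gene, ACAAT was in 3 of 4 windows of Eip74EF, 4 of 9 of Hr3, 4 of 11 of Hr4, 3 of 9 of EcR, 4 of 13 of Eip75B, 2 of 15 of ftz-f1, and none of the 5 of Eip78C, the 2 of usp or the 1 of br. The half-site AGGTCA was in none of the 69 windows, against 2.11% of all. With a limit of 3 counts, 0 of 69 allows a share of up to 4.35%, above the 2.11%. In the 138 windows flanking these summits AGGTCA was in 7 (5.07%), against 2.14% of all flanking windows. The homeodomain core TAATTA was in 10 windows (14.5%), against 11.9% of all, and in 1.45% of the members' flanks, or 2 windows, against 5.5% of all flanks. AGATAA was in 7 windows (10.1%), against 9.05% of all, and in 2.17% of the members' flanks, or 3 windows, against 5.17% of all flanks. AACAAT contains ACAAT, so their counts overlap. The part of base composition in these counts was not tested. A word is a match of letters and not a mapped site.

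Other genes of the hormone pathway were taken as 4 lists by function, to be read beside the 10. The shares over all protein-coding genes are the 16.9% for promoters and the 25.3% for bodies given above. Both differ with length. For bodies under 5 kb they were 13.1% for promoters and 15.4% for bodies. For 5 to 10 kb they were 22.1% and 33.2%, and for 10 to 20 kb 28.6% and 52.8%. The 4 lists were not matched for length. Of 13 other nuclear receptor genes, 5 were promoter-bound (38.5%) and 8 held a summit in the body (61.5%), at 0.55 per 10 kb. The bound ones were Hr96, a receptor for sterols and foreign compounds (signal value 807), the fatty acid sensor Hnf4 (566), Hr78 (460), eg (398) and ERR (260). Hnf4 and knrl held the most, with 2 summits each. Of 10 genes for making, breaking down or taking up ecdysteroids, 1 was promoter-bound (10%) and 2 held a summit (20%), at 0.42 per 10 kb. The bound one was Oatp74D, which encodes an ecdysone importer, at 124, and it held 6 of the 7 summits of the list, with the other in shd, the gene of the enzyme for the last step of 20-hydroxyecdysone synthesis.

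Of 18 other ecdysone-inducible genes, 7 were promoter-bound (38.9%) and 11 held a summit (61.1%), at 0.96 per 10 kb. The highest promoters were those of E23, an ABC transporter gene, at 2186, of Sox14 at 1592, of vri, which encodes a bZIP repressor of the circadian clock, at 750, and of Eip63F-1 at 563. Most summits were in Eip63E with 10 and vri with 6. Of 14 genes for cofactors of the receptors, 4 were promoter-bound (28.6%) and 8 held a summit (57.1%), at 1.16 per 10 kb. These promoters were those of tai, a coactivator of EcR (461), the corepressor gene Sin3A (350), the juvenile hormone receptor gene gce (216) and Ncoa6 (202). Most summits were in tai with 10 and the corepressor gene Smr with 8. The 10 transcription factor genes stood at 1.21 per 10 kb, above the 0.42 to 1.16 of the 4 lists. Gene length differed between them, with a median body of 9.06 kb for the other receptors, 4.51 kb for the ecdysteroid genes, 14 kb for the inducible genes and 16.3 kb for the cofactors. No test was made between them.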

How the data were processed

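ChIP-seq peak lists of 2 samples of 1 group were used. The authors deposited 4 lists on dm6 in narrowPeak format: 1 for each replicate, 1 for both pooled and 1 optimal list derived from them. The deposited signal value has no stated scaling and was used to rank, filter or describe peaks within a list. Across lists it was used only to correlate the 2 replicates or set them side by side. The deposited −log10 q-value was not used for ranking. For the aligner and the caller, names and versions were not given in the sources used. The lists held no read counts, so depth was unknown. The optimal list was exactly the 7488 pooled peaks of highest signal value.

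Genes and start sites came from Ensembl release 115 and sequence from RefSeq. A summit was the peak start plus its offset. It was counted within 500 bp of each distinct start site of a protein-coding gene, and in the gene body with 1000 bp upstream, divided by that length. A summit in overlapping genes counted for each. Sequence words were sought on both strands up to 50 bp from a summit. Share intervals are 95% Wilson intervals. For a count of 0 the limit given is 3 counts of the total. Alternatives were other windows, thresholds, overlaps and each replicate alone. Counting was tested on simulated data. No test between groups was possible. The members, the 4 other lists and the words were chosen with earlier results of these data known. All members are named, with genes that share their promoter summits or overlap them, and of each other list up to 4 bound genes of highest promoter signal value, with ERR added after its value was seen, and the 2 with most summits. Of these lists, phm was not matched, and Eip71CD and Eip55E were found by RefSeq synonyms. Figures were drawn with matplotlib 3.10.9, and values computed in Python 3.11.15 with pandas 2.3.3, numpy 2.4.6 and scipy 1.17.1.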

Additional observations from a re-analysis of the deposited data

How the results depend on the processing

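Of the summary counts, those that reached weaker or fewer peaks moved most. With the whole pooled list, 6 members were promoter-bound, 12 start sites were bound, the bodies held 235 summits and the density was 4.11 per 10 kb. With optimal peaks above the median signal value, the bodies held 40 summits, at 0.70 per 10 kb. This cut lowers the density over the arms too, which was not recomputed. It kept 58% of the 69 summits (interval 46.2 to 68.9%), against about 50% of all optimal peaks by the definition of a median. With a promoter window of 1000 bp, 8 start sites were bound. Within 100 bp of the summit in place of 50 bp, 47.8% of the windows held ACAAT. The share of summits found in both replicates was 98.6% for any overlap of 1 bp, 71% for a reciprocal overlap of 50% and 76.8% when only the highest peaks of each replicate counted. In each replicate alone, without the other, 3 members were promoter-bound, 5 start sites were bound, 9 members held a summit in the body, the bodies held 67 summits at 1.17 per 10 kb, and the share with ACAAT ranged from 23.9 to 31.3%. With the count per gene, an alternative added after the data were seen, all 10 genes stayed within 1.5 times without either replicate. In the pooled list 8 of them were higher by more, and above the median signal 6 were lower by more. No paired analysis was possible because all samples belong to 1 group. The lists hold no read counts, so depth is unknown. Also unknown is what depth would hide, such as peaks in Hr39 or br weaker than those listed. The signal values depend on a control that was not analysed here.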
